A study of Mus musculus with 30 samples.

Results

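Expression of 10 C-type lectin and scavenger receptor genes, *Clec4a2*, *Clec4d*, *Clec4e*, *Clec4n*, *Clec7a*, *Clec10a*, *Clec12a*, *Msr1*, *Marco* and *Stab1*, was described in gonadal white adipose tissue (gWAT) of diabetes-prone (DP) and diabetes-resistant (DR) mice. The genes were taken by symbol from the table of gene counts, which lists 55401 genes, and all 10 were found and passed the filter on low counts. RNA came from 30 female New Zealand Obese (NZO) mice of the strain NZO/HIBomDife, 15 DP and 15 DR, with 1 library per mouse. The mice are genetically identical, no engineered allele is described in either group, and both groups were fed a high-fat diet. After 5 weeks on this diet the study classed each female by a risk score, and gWAT was taken at 10 weeks of age, before hyperglycaemia, with DR as the control group. The group of a mouse is therefore a forecast and not an observed disease, and the comparison asked how prediabetic fat of the mice classed as prone differs from that of the mice classed as resistant.

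C-type lectin receptors and scavenger receptors sit on macrophages, dendritic cells and other myeloid cells and bind sugars, lipids, modified lipoproteins and debris of dying cells. *Clec7a* (Dectin-1) carries its own activating motif, whereas *Clec4n* (Dectin-2), *Clec4e* (Mincle) and *Clec4d* (MCL) signal through the adaptor FcRγ, and all of them use the kinase Syk and the scaffold CARD9 to switch on cytokine genes. *Clec4a2* (DCIR) and *Clec12a* (MICL) carry inhibitory motifs that recruit phosphatases. *Clec10a* (MGL1) binds galactose-type sugars and is used as a marker of alternatively activated macrophages in fat. *Msr1* and *Marco* take up modified lipoproteins and particles, and *Stab1* (stabilin-1) clears matrix proteins and cell remnants. Macrophages gather around stressed adipocytes in obese fat, where they take up lipid.

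Total counts ran from 28146906 to 29974243 per library with 23854 to 24666 genes detected, and a two-sided permutation test did not detect a difference of either measure between the groups (p = 0.741 and 0.916). The share of counts from mitochondrial genes was lower in DP by the same test, at 6.18% ± 0.624 against 7.19% ± 0.616 (SD, n = 15 each, permutation p = 8e-05), and its part in the receptor differences was not tested. Adipocyte markers were abundant. Summed CPM (counts scaled to a common total with TMM factors) of 8 adipocyte markers ran from 9387 to 13159 in DP and from 13526 to 19525 in DR. Summed CPM of 10 pan-macrophage markers (*Adgre1*, *Cd68*, *Csf1r*, *Fcgr1*, *Mertk*, *Lyz2*, *C1qa*, *C1qb*, *C1qc* and *Cd14*) ran from 3790 to 5637 in DP and from 1441 to 3405 in DR, so that these groups did not overlap, and 9 of the 10 were higher in DP while *Mertk* was not called. In bulk tissue, more cells of a type and more RNA per cell cannot be told apart. Adjusted p-values come from the quasi-likelihood test of edgeR, adjusted by Benjamini-Hochberg over 17482 genes, of which 55.5% were called (adjusted p under 0.05), 28.2% as higher in DP and 27.3% as lower. The median log2 fold change of all genes tested was -0.01.

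Of the 10 receptors, 9 were higher in DP, 0 were lower and *Marco* was not called, beside the 28.2% of all genes called higher. The median log2 fold change of the 10 was 0.84. The largest differences were those of *Clec4d* (2.86-fold), *Msr1* (2.21-fold), *Clec12a* (2.14-fold) and *Clec7a* (1.98-fold), and the smallest among the called receptors was that of *Stab1* (1.34-fold). In 3 of the 10 (*Clec4d*, *Msr1* and *Clec12a*) every DP library lay above every DR library, a separation found in 1.96% of all genes tested.

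**Figure D1:**
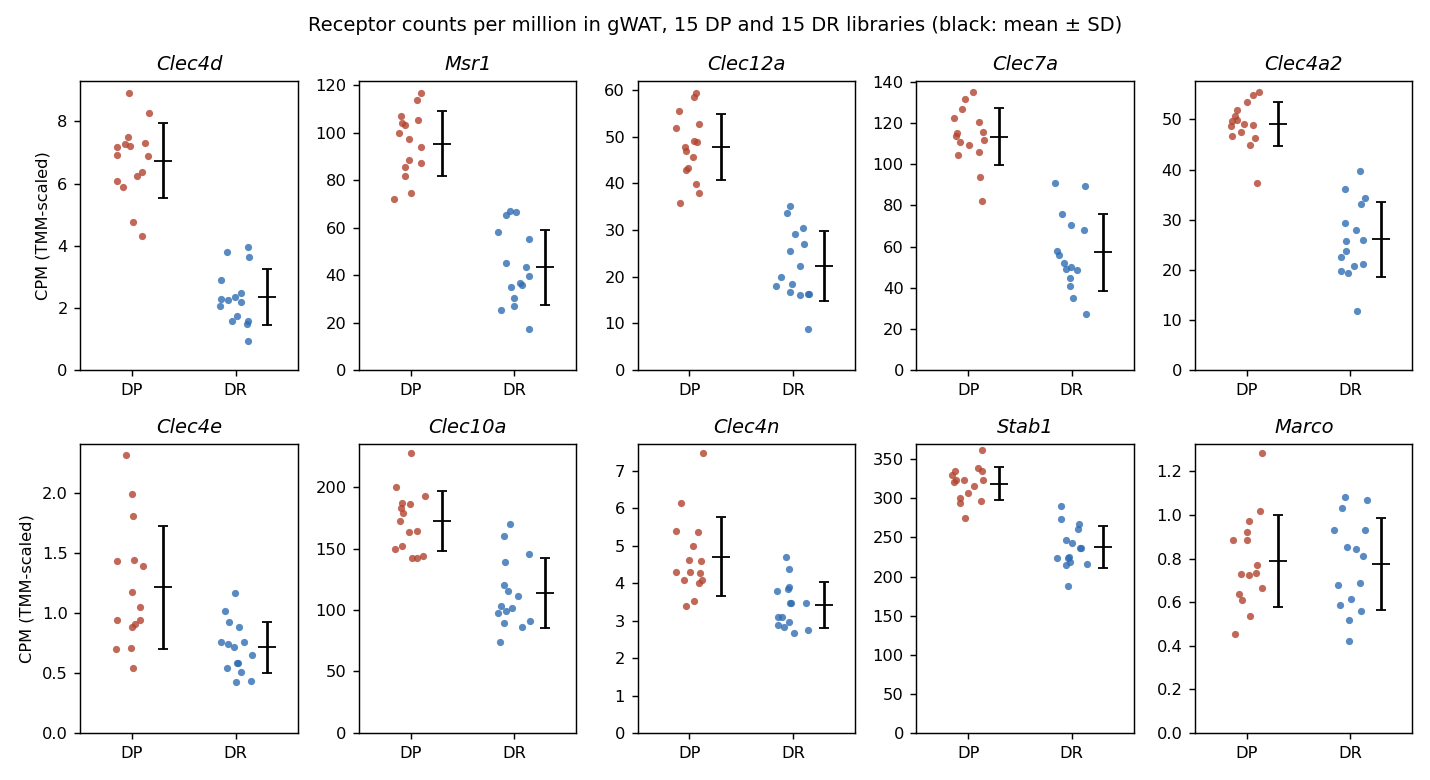
TMM-scaled CPM (vertical axis, from 0) of each receptor in the 15 DP (red) and 15 DR (blue) libraries, with the mean ± SD in black. *Clec4d*, *Msr1* and *Clec12a* show no overlap between the groups, *Clec4e*, *Clec10a* and *Clec4n* overlap in part, and *Marco* overlaps almost fully.

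*Clec4d*, the FcRγ-coupled partner of Mincle (chromosome 6, 123262111 to 123275265 of GRCm38), ran from 4.32 through a median of 6.92 to 8.90 CPM in DP and from 0.930 through 2.27 to 3.96 CPM in DR. All 15 DP libraries lay above the highest DR library. The means were 6.74 ± 1.20 and 2.35 ± 0.893 CPM (SD, n = 15 each), a log2 fold change of 1.52 ± 0.150 (SE, adjusted p = 1.80e-09), which placed *Clec4d* at percentile 99.8 of the fold changes of all genes tested. Its neighbour *Clec4e* (Mincle, chromosome 6, 123281789 to 123289870), an inducible receptor for mycobacterial glycolipid and for a nuclear protein of dead cells, was near the lower end of what this depth resolves, with 12 to 68 counts per library. It ran from 0.537 through 1.05 to 2.31 CPM in DP and from 0.423 through 0.715 to 1.17 CPM in DR. The groups overlapped, with 7 DP libraries above the DR maximum and 12 above the DR median, and the DP libraries were more spread (coefficient of variation 42.1% against 30.3%). *Clec4e* was 1.70-fold higher in DP (log2 fold change 0.77 ± 0.187, adjusted p = 0.000838).

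*Clec7a*, the β-glucan receptor Dectin-1 (chromosome 6, 129461591 to 129472779), ran from 82.1 through 114 to 135 CPM in DP and from 27.4 through 51.9 to 91.1 CPM in DR. Only the lowest DP library fell inside the DR range. The means were 113 ± 13.8 and 57.1 ± 18.6 CPM, a log2 fold change of 0.99 ± 0.124 (adjusted p = 7.36e-08). The annotation used here types *Clec7a* as a polymorphic pseudogene, a class for genes that are coding in some strains, and the counts say nothing of whether the NZO allele is intact.

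*Clec4n*, the mannan receptor Dectin-2 (chromosome 6, 123229843 to 123247021), ran from 3.39 through 4.31 to 7.49 CPM in DP and from 2.67 through 3.47 to 4.70 CPM in DR. The groups overlapped widely, with 5 DP libraries above the DR maximum although 14 lay above the DR median. *Clec4n* was 1.37-fold higher in DP (log2 fold change 0.46 ± 0.101, adjusted p = 0.000275), the smallest difference among the 4 activating lectins. The library DP4, which also held the highest *Clec4e* value, was highest for *Clec4n*, and it was the DP library that correlated least with the rest of its group. Without it and DR7, the DR library that correlated least with its group, 9 of the 10 receptors were still called higher.

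Ratios inside a library compared the FcRγ-coupled receptors with each other. The log2 ratio of *Clec4d* to *Clec4n* counts inside a library was 0.52 ± 0.491 in the DP group and -0.61 ± 0.594 in the DR group (mean ± SD of 15 libraries, two-sided permutation p = 4e-05). *Clec4n* had more counts than *Clec4d* on average in DR and fewer in DP. The log2 ratio of *Clec4d* to *Clec4e* was 2.55 ± 0.667 in DP and 1.66 ± 0.424 in DR (permutation p = 0.000300). These ratios are among 6 that were compared, all chosen after the values had been seen, and the smallest p that 100000 resamples allow is 2e-05.

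The inhibitory lectins were higher in DP as well. *Clec12a*, which binds uric acid crystals (chromosome 6, 129342691 to 129365303), ran from 35.8 through 47.7 to 59.4 CPM in DP and from 8.91 through 20.03 to 35.3 CPM in DR. The groups met without overlapping, the lowest DP and the highest DR library lying next to each other. The means were 47.7 ± 7.09 and 22.3 ± 7.56 CPM (log2 fold change 1.10 ± 0.135, adjusted p = 4.73e-08). *Clec4a2*, an inhibitory receptor of the Dectin-2 cluster (chromosome 6, 123106428 to 123143999), ran from 37.3 through 49.1 to 55.5 CPM in DP and from 11.8 through 25.7 to 39.8 CPM in DR, and 14 DP libraries lay above the DR maximum. Its means were 49.0 ± 4.44 and 26.1 ± 7.45 CPM (1.88-fold, log2 fold change 0.91 ± 0.109, adjusted p = 3.62e-08). Of the 50-base stretches of *Clec4a2* transcripts, 6.83% also occur in another gene, most often in *Clec4a4* of the same cluster, so part of its reads cannot be assigned with certainty.

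*Clec10a*, the galactose-type lectin MGL1 (chromosome 11, 70156197 to 70170834), ran from 142 through 172 to 228 CPM in DP and from 73.6 through 103 to 170.4 CPM in DR. The groups overlapped, with 8 DP libraries above the DR maximum, and the means were 172 ± 24.6 and 114 ± 28.4 CPM (1.52-fold, log2 fold change 0.60 ± 0.0997, adjusted p = 6.22e-06). Its close relative *Mgl2*, the other mouse MGL, was lower in DP, at 42.0 ± 8.45 against 53.6 ± 8.04 CPM (log2 fold change -0.35 ± 0.0884, adjusted p = 0.00121). The log2 ratio of *Clec10a* to *Mgl2* was 2.05 ± 0.382 in DP and 1.06 ± 0.444 in DR (two-sided permutation p = 2e-05, the smallest these resamples allow). The pair share sequence, since 8.49% of the 50-base stretches of *Clec10a* also occur in *Mgl2*. Part of their reads therefore cannot be assigned with certainty, and the effect of this on their values was not tested.

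*Msr1*, the class A macrophage scavenger receptor (chromosome 8, 39581685 to 39642673), ran from 72.3 through 97.5 to 117 CPM in DP and from 17.3 through 39.8 to 67.2 CPM in DR. No DP library overlapped the DR range, and the means were 95.5 ± 13.5 and 43.3 ± 15.97 CPM (log2 fold change 1.14 ± 0.145, adjusted p = 8.29e-08). *Marco*, the other class A receptor of the set (chromosome 1, 120474538 to 120505024) and one best known from macrophages of the lung and the splenic marginal zone, stayed between 12 and 37 counts per library. It ran from 0.452 through 0.732 to 1.28 CPM in DP and from 0.423 through 0.812 to 1.08 CPM in DR. The groups overlapped almost fully, with 1 DP library above the DR maximum and 6 above the DR median. The log2 fold change of 0.03 ± 0.144 had a 95% confidence interval of -0.27 to 0.32 (adjusted p = 0.893), so that a 2-fold difference in either direction lies outside it. The log2 ratio of *Msr1* to *Marco* was 6.92 ± 0.413 in DP and 5.72 ± 0.663 in DR (permutation p = 2e-05).

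*Stab1* (chromosome 14, 31139013 to 31168641), which is made by tissue macrophages and by sinusoidal and lymphatic endothelium, ran from 275 through 323 to 361 CPM in DP and from 188 through 237 to 290.4 CPM in DR. Its difference was small but even, with 14 DP libraries above the DR maximum and coefficients of variation of 6.72% in DP and 11.2% in DR, the lowest of the 10 receptors in each group. The log2 fold change was 0.42 ± 0.0476 (adjusted p = 1.15e-08). Its homologue *Stab2* differed more, at 19.7 ± 3.78 against 10.5 ± 4.43 CPM, and the log2 ratio of *Stab2* to *Stab1* was -4.04 ± 0.260 in DP and -4.61 ± 0.478 in DR (permutation p = 0.000560). Of the exons of *Stab1*, 112 bases overlap *Nt5dc2* on the other strand, and whether the counts respect strand is not stated.

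Per kilobase of exon (CPM divided by exon length, FPKM-like), the mean level over all 30 libraries was highest for *Clec10a* (49.4), followed by *Clec7a* (32.3) and *Stab1* (27.05), whereas *Stab1*, with the longest transcript of the 10, led in CPM. *Clec4a2* (12.8), *Msr1* (10.9) and *Clec12a* (6.33) were intermediate. *Clec4n* (2.86) and *Clec4d* (2.84) were level with each other over all libraries, but *Clec4d* stood at 4.22 ± 0.748 in DP and 1.47 ± 0.558 in DR and *Clec4n* at 3.32 ± 0.747 and 2.41 ± 0.430. *Marco* (0.406) and *Clec4e* (0.194) were lowest. The neighbours *Clec4a2* and *Msr1* overlapped within their SD in each group (16.8 ± 1.52 and 15.0 ± 2.13 in DP, 8.92 ± 2.55 and 6.82 ± 2.52 in DR).

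For the 5 receptors with the largest differences, and also for *Clec10a* and *Stab1*, the coefficient of variation was larger in DR than in DP, a contrast that was not tested. It was 37.9% in DR and 17.7% in DP for *Clec4d*, 36.9% and 14.2% for *Msr1*, 33.9% and 14.9% for *Clec12a*, 32.5% and 12.2% for *Clec7a* and 28.5% and 9.06% for *Clec4a2*. It was 25.01% in DR and 14.3% in DP for *Clec10a*, 11.2% and 6.72% for *Stab1*, and nearly even for *Marco* (27.2% and 26.8%). The mean log2 CPM of the pan-macrophage markers was also more spread in DR (SD 0.326) than in DP (SD 0.139). That of resident macrophage markers was less spread in DR (SD 0.138) than in DP (SD 0.189). DR8 and DR12 held the top values of DR for *Clec4a2*, *Clec4d*, *Clec7a* and *Clec12a*, for example 91.1 and 89.3 CPM of *Clec7a*, above the lowest DP library. DR11 was the lowest of all 30 libraries for *Clec4a2*, *Clec4d*, *Clec7a*, *Clec10a*, *Clec12a*, *Msr1* and *Stab1*, with 0.930 CPM of *Clec4d* and 17.3 CPM of *Msr1*. *Clec4e* and *Clec4n* ran the other way, more spread in DP (42.1% and 22.5%) than in DR (30.3% and 17.8%). Leaving out any single library, DR11 included, left 9 of the 10 receptors called.

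To ask how the receptors differ per unit of macrophage RNA, the groups were also compared with libraries scaled to the geometric mean of the 10 pan-macrophage markers, none of which is among the receptors. This scaling moves the median of all genes by 0.91 on the log2 scale, so that 94.1% of all genes were called, 93% as lower in DP and 1.12% as higher. On this scale 4 receptors were higher in DP, 4 were lower and 2 were not called. The 10 markers themselves also spread on it, with 4 called higher and 3 lower. Their log2 fold changes ran from -0.73 (*Mertk*) to 0.36 (*Adgre1*). Among the called receptors, only *Clec4d* and *Marco* lay outside that range. *Clec4d* differed most among the higher receptors (log2 fold change 0.69 ± 0.102, adjusted p = 1.04e-07), followed by *Msr1* (0.32 ± 0.0826, adjusted p = 0.000465), *Clec12a* (0.27 ± 0.0707, adjusted p = 0.000524) and *Clec7a* (0.16 ± 0.0631, adjusted p = 0.0190). *Clec4a2* (0.07 ± 0.0584, adjusted p = 0.218) and *Clec4e* (-0.08 ± 0.190, adjusted p = 0.687) were not called, with 95% confidence intervals of -0.04 to 0.19 and -0.46 to 0.31.

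The receptors that were lower in DP relative to the markers were *Clec10a* (-0.25 ± 0.0706, adjusted p = 0.00111), *Clec4n* (-0.42 ± 0.133, adjusted p = 0.00345), *Stab1* (-0.46 ± 0.0678, adjusted p = 8.96e-08) and *Marco* (-0.86 ± 0.173, adjusted p = 2.34e-05). Per 100 counts of the marker mean, *Clec4d* gave 2.68 ± 0.395 counts in DP and 1.65 ± 0.330 in DR, with all 15 DP libraries above the DR median. *Stab1* gave 128 ± 10.2 counts in DP and 176 ± 24.5 in DR, with all 15 DP libraries below it. With *Adgre1*, *Csf1r* and *Mertk* alone as the scale, *Clec4a2* was called higher (log2 fold change 0.27), *Clec4n* (-0.22, adjusted p = 0.136) and *Clec10a* (-0.05, adjusted p = 0.492) were no longer called and *Clec4e* changed sign without a call (0.14). With summed marker counts as the scale *Clec7a* was no longer called (0.08, adjusted p = 0.221). *Clec4d*, *Msr1* and *Clec12a* were called higher and *Stab1* and *Marco* lower under all 5 alternatives to this fit.

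**Figure D2:**
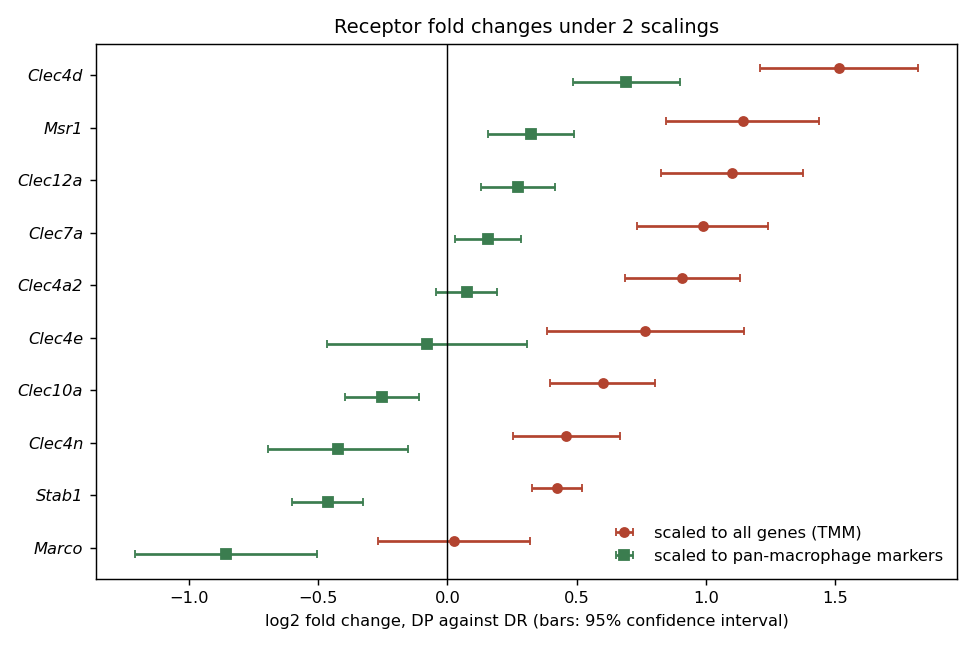
Log2 fold change of each receptor, DP against DR (horizontal axis), with its 95% confidence interval, scaled to all genes by TMM (red circles) or to 10 pan-macrophage markers (green squares). On the first scale all but *Marco* lie to the right of 0, and on the other *Clec4d* (0.69) and *Marco* (-0.86) mark the ends.

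With the pan-macrophage level as a covariate in place of a scale, 0 of the 10 receptors were called by edgeR (1 of them, *Clec12a*, at an unadjusted p under 0.05, with a log2 fold change of -0.19) and 1 of 17482 genes was called, *Ssbp4*, named here because it was the only call. The covariate was itself closely tied to the group (Pearson r = 0.88 over 30 libraries, with groups coded as numbers). The log2 fold changes of the receptors in this fit ran from -0.19 to 0.44, and the cause of the lost calls was not tested. No other tool was run with the covariate.

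How the receptors vary between mice of the same group was described by Pearson's r of log2 CPM over the 30 libraries after removal of the group means. These libraries share depth and tissue composition, so r is given as a description. *Clec12a*, *Clec7a*, *Clec4a2*, *Msr1*, *Clec4d*, *Stab1* and *Clec10a* formed 21 pairs with r from 0.61 to 0.94, of which *Clec4a2* and *Clec7a* were the closest. Within DR alone these pairs gave 0.75 to 0.97, and within DP 0.01 to 0.83. Each of these receptors also had a smaller coefficient of variation in DP, and the part of this in the lower r was not tested. The 24 pairs that hold *Clec4e*, *Clec4n* or *Marco* gave -0.11 to 0.39 (0.02 to 0.67 within DR and -0.65 to 0.61 within DP), although *Clec4e* and *Clec4n* lie beside *Clec4d* on the chromosome and couple to the same adaptor.

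The closely varying receptors followed the pan-macrophage markers, with r of 0.96 for *Clec12a*, 0.95 for *Clec7a*, 0.94 for *Clec4a2*, 0.92 for *Msr1*, 0.88 for *Clec4d*, 0.81 for *Stab1* and 0.79 for *Clec10a*. DR11 and DR12 were the libraries farthest from the median of the marker level after removal of group means. Without them these values were 0.94, 0.91, 0.92, 0.87, 0.80, 0.75 and 0.74. With all libraries, r of these 7 receptors ran from 0.88 (*Stab1*) to 0.98 (*Clec12a*) in DR. In DP it was lower for each, from 0.45 (*Clec10a*) to 0.85 (*Clec12a*). The marker level itself spread less in DP (SD 0.139 of mean log2 CPM) than in DR (SD 0.326). The part of this narrower range in the lower r was not tested. The pooled values of *Clec4e* (0.25), *Marco* (0.09) and *Clec4n* (0.00) were lower than those of the 7. Those of *Clec4e* and *Clec4n* combine unlike groups, with r of 0.60 in DR and -0.20 in DP for *Clec4e* and 0.22 in DR and -0.43 in DP for *Clec4n*. With 9 markers of lipid-associated macrophages, such as *Spp1* and *Lgals3*, r was 0.92 for *Msr1* and 0.91 for *Clec4d*. With 8 markers of resident macrophages the same 7 receptors gave only -0.26 to 0.13. *Clec4n* varied with markers of dendritic cells (r = 0.57, Spearman's rho = 0.49), monocytes (0.56 and 0.45) and T cells (0.55 and 0.28), and *Clec4e* with those of monocytes (0.59 and 0.63). DP4 was the top library for all 3 of these lists. Without it, a choice made after seeing the data, r was 0.44, 0.43 and 0.37 for *Clec4n* and 0.49 for *Clec4e*.

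**Figure D3:**
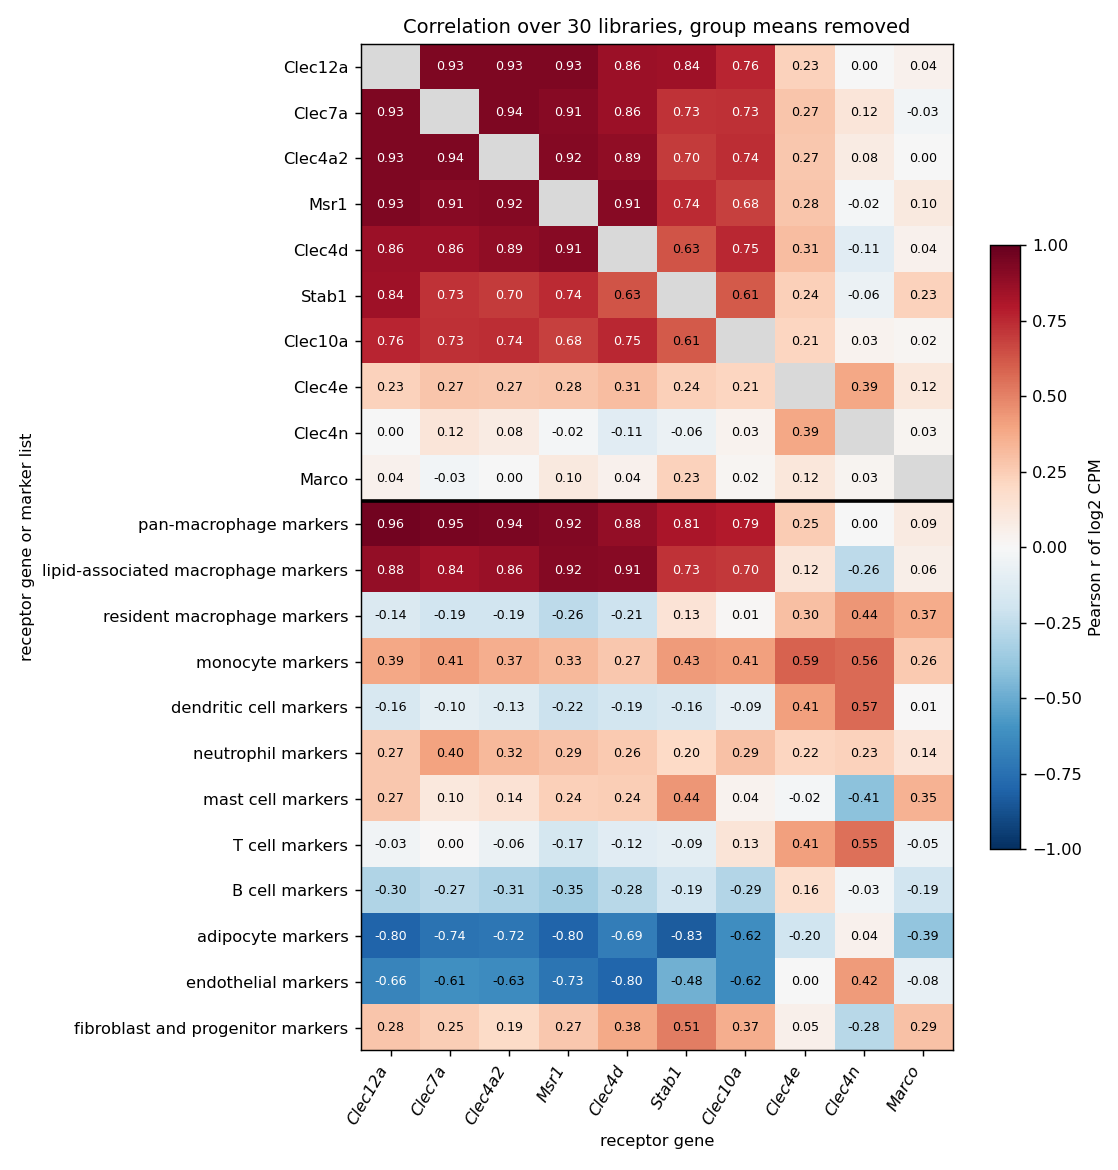
Pearson r over 30 libraries after removal of group means, between receptors (upper rows) and between receptors and the mean level of marker lists (lower rows), with r printed in each cell. The 7 receptors at the left are red with each other and with the pan-macrophage and lipid-associated lists and blue with adipocyte markers. *Clec4e*, *Clec4n* and *Marco* are paler with those 7 receptors (-0.11 to 0.31), while *Clec4e* is red with monocyte markers (0.59) and *Clec4n* with monocyte (0.56), dendritic cell (0.57) and T cell (0.55) markers.

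Among 12516 other well-measured genes, the most alike to *Msr1* within groups was the adaptor *Sh3bp2* (r = 0.97), to *Clec12a* the actin nucleator *Actr3* (0.97), to *Clec7a* and *Clec4a2* the macrophage pore protein *Mpeg1* (0.96 and 0.95) and to *Clec4d* the glycosyltransferase *Galnt6* (0.94). *Clec10a* was most like the progranulin gene *Grn* (0.88) and *Stab1* most like the plexin *Plxnb2* (0.87). The other 3 had weaker nearest genes, the natural killer cell receptor-like gene *Klrb1b* for *Clec4n* (0.80), the sorting nexin *Snx18* for *Clec4e* (0.74) and the MAP kinase phosphatase *Dusp6* for *Marco* (0.65, Spearman's rho = 0.51). Each nearest gene is the highest of all these r values over 30 libraries, and whether unrelated genes would reach it was not tested. *Clec4e* and *Marco* also had few counts. *Klrb1b* itself was not called between the groups (log2 fold change 0.10, adjusted p = 0.477).

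Of the receptors, 6 lie in a pair of gene clusters of chromosome 6. The counts of both clusters include those 6 receptors and stand beside the 28.2% of all tested genes called higher and the 27.3% called lower. In the Dectin-2 cluster all 8 tested genes of 9 were higher in DP, with a median log2 fold change of 0.86, from *Clec4n* (0.46) to *Clec4d* (1.52), its neighbour. The other genes of that cluster were *Clec4a1* (0.72 ± 0.0790), *Clec4a3* (0.81 ± 0.0927), *Clec4a4* (1.08 ± 0.453, adjusted p = 0.0428) and *Clec4b1* (0.90 ± 0.109). In the Dectin-1 cluster *Clec12a*, *Clec12b*, *Clec7a* and *Olr1* were higher, *Clec1a* was lower (-0.16 ± 0.0683, adjusted p = 0.0407), and *Clec1b* (-0.13) and *Clec9a* (-0.06) were not called. The 3 genes that were not higher lie side by side between *Clec12b* and *Clec7a*. *Clec1b* (CLEC-2) is known from platelets and *Clec9a* from cross-presenting dendritic cells.

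**Figure D4:**
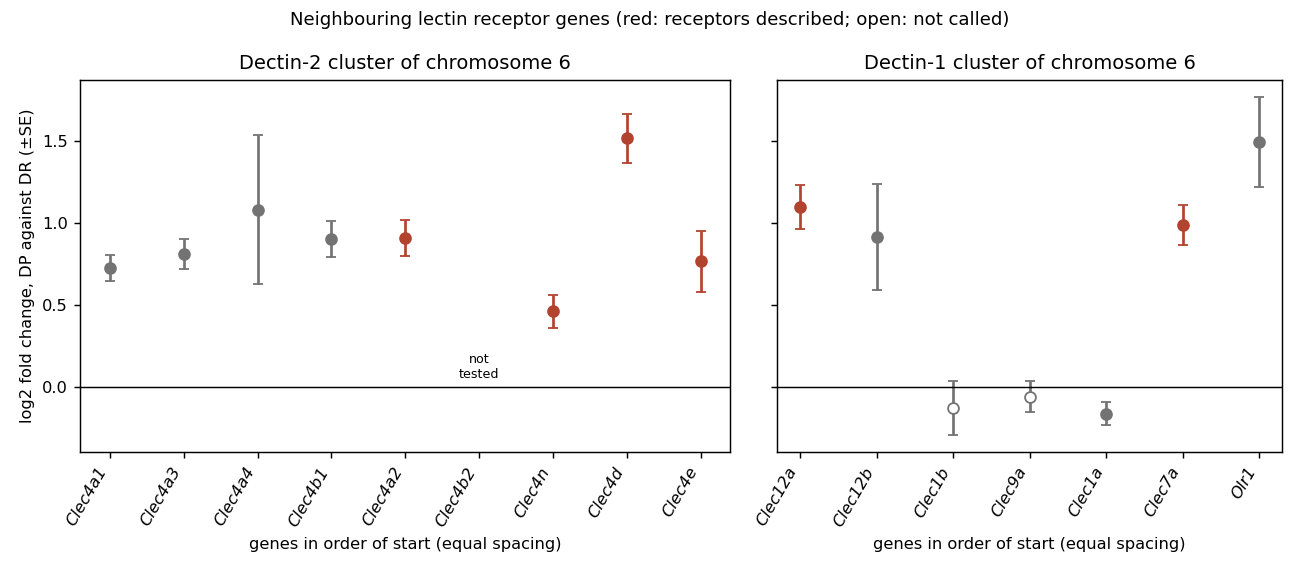
Log2 fold change, DP against DR, ± SE (vertical axis) of the genes of the Dectin-2 cluster (left) and the Dectin-1 cluster (right) of chromosome 6 in genomic order. Every tested gene on the left lies above 0, from 0.46 to 1.52, and *Clec1b*, *Clec9a* and *Clec1a* on the right lie at -0.13, -0.06 and -0.16 between higher neighbours.

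RefSeq promoters (GRCm38.p6) were given for 7 of the 10 receptors. The RefSeq start lies 7.55 kb inside the gene span given above for *Clec12a* and 16.3 kb inside that of *Clec4a2*, and within 6 bases of its end for the other 5. They were searched on both strands of the 250 bases before the start for GAGGAA, the core bound by PU.1, the factor that defines the myeloid lineage and whose gene *Spi1* was 1.95-fold higher in DP (112 ± 14.5 against 57.4 ± 15.8 CPM). GAGGAA occurred in 6 of the 7, all but *Clec4a2*, and in 23.3% of 32851 promoters of the same length. In the 150 bases nearest the start it occurred in 5 of the 7 and in 14.5% of all promoters. The letters TGANTCA (AP-1) occurred in *Clec12a* alone (6.75% of all) and TTNNGNAAT (C/EBP) in *Clec12a*, *Clec4a2* and *Clec4d* (10.2% of all), and none of these overlapped GAGGAA. Over all 30 libraries *Clec12a* and *Clec7a* vary together, while *Clec4e* and *Marco* follow them less. Within DR alone, *Clec4e* gave r of 0.62 with *Clec12a* and 0.60 with *Clec7a*. Shown are the stretches of 5 receptors, chosen as these and *Clec4d*, which has the largest difference. They run 5′ to 3′ toward the start on the gene's strand, with GAGGAA or its complement in capitals.
*Clec12a* (chr6:129350094-129350243, plus strand): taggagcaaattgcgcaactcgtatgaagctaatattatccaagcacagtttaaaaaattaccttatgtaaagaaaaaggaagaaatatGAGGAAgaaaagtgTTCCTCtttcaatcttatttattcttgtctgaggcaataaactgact
*Clec7a* (chr6:129472786-129472935, minus strand): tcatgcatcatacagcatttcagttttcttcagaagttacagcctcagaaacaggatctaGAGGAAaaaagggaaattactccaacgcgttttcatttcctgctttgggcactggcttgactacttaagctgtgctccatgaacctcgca
*Clec4e* (chr6:123289872-123290021, minus strand): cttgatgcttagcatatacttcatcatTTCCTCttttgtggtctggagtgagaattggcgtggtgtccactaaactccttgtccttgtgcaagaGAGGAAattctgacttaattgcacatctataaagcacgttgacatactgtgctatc
*Marco* (chr1:120505025-120505174, minus strand): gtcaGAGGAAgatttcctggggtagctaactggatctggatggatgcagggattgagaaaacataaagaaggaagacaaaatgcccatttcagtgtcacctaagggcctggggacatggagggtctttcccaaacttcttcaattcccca
*Clec4d* (chr6:123261957-123262106, plus strand): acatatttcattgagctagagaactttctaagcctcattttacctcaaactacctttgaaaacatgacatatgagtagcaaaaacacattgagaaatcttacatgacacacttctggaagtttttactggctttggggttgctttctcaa

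*Clec12a* held the letters 2 times in these stretches, as did *Clec4e*, while *Clec7a* and *Marco* held them 1 time. *Clec4d* held them only farther out. *Marco*, which holds a match, was not called between the groups, and *Clec4d*, which holds none in this window, had the largest difference. A match is a description of the sequence and not a bound site.

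Genes that work with the receptors were grouped by role, and each count below stands beside the 28.2% of all tested genes called higher and the 27.3% called lower. Of 22 adaptor, kinase and CARD9 pathway genes, 18 were higher in DP, 3 were lower and 1 was not called, with a median log2 fold change of 0.43. The FcRγ gene *Fcer1g* was at 201 ± 22.5 against 105 ± 25.9 CPM (0.93 ± 0.0967, adjusted p = 3.61e-09). The sister adaptor *Tyrobp* (1.05 ± 0.110), the exchange factor *Vav1* (1.02 ± 0.107) and the kinase *Prkcd*, which phosphorylates CARD9 (0.60 ± 0.0559), were also higher. Among genes picked after their values were seen, *Syk* (0.83) and *Card9* (0.75) were higher, whereas *Malt1*, the protease that CARD9 engages, was not called (-0.12, adjusted p = 0.0674) and *Traf6* (-0.07) and *Map3k7* (-0.10) were among those lower. Other genes below CARD9, picked in the same way, were higher, namely *Bcl10* (0.32), *Ikbkb* (0.23) and the NF-κB subunit genes *Rel* (0.51) and *Nfkb1* (0.19). The NF-κB subunit gene *Rela* was slightly higher (0.10).

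Of 6 phosphatase genes that inhibitory receptors recruit or that act beside them, 5 were higher and 1 was lower, with a median of 0.64. *Ptpn6*, which encodes SHP-1 (0.88 ± 0.102), *Inpp5d*, which encodes SHIP1 (0.71 ± 0.0708), and *Ptprc* (0.75 ± 0.0946) were higher, and the broadly made *Ptpn11* was lower (-0.22 ± 0.0272, adjusted p = 6.74e-08). Of 14 cytokine, chemokine and inflammasome genes downstream of CARD9, 9 passed the filter and all 9 were higher, with a median of 0.64. *Ccl3* was at 9.94 ± 2.23 against 3.99 ± 1.41 CPM (1.32 ± 0.155), *Ccl4* at 5.34 ± 1.03 against 2.25 ± 0.881 CPM (1.25 ± 0.153), *Ccl2* at 43.0 ± 14.7 against 20.9 ± 7.11 CPM (1.04 ± 0.177) and *Cxcl2* at 2.66 ± 0.681 against 1.41 ± 0.426 CPM (0.91 ± 0.147). *Il1a*, *Il6*, *Il12b*, *Il23a* and *Csf2* were too low to test.

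Protein ligands and cargo of the receptors differed less. Of 8 such genes, 7 were tested, 6 were higher and 1 was lower, with a median of 0.17. *Sparc*, a matrix protein cleared by stabilin-1, was lower (6170.2 ± 430 against 7814 ± 422 CPM, -0.34 ± 0.0343, adjusted p = 2.28e-09) while *Stab1* was higher. *Chid1*, the other stabilin-1 cargo, was slightly higher (0.17 ± 0.0310, adjusted p = 1.70e-05), as were the annexin gene *Anxa1* (0.45 ± 0.0680) and *Vim* (0.32 ± 0.0372). *Sap130*, the nuclear ligand of Mincle, barely differed (0.08, adjusted p = 0.0421). Of 16 myeloid transcription factor genes, 13 were higher, 1 was lower and 2 were not called (median 0.34), among the higher *Spi1* (0.97 ± 0.108), *Irf5* (0.84 ± 0.0810) and *Runx1* (0.76 ± 0.0760). *Cebpa*, which adipocytes also use, was lower (-0.25 ± 0.0424).

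**Figure D5:**
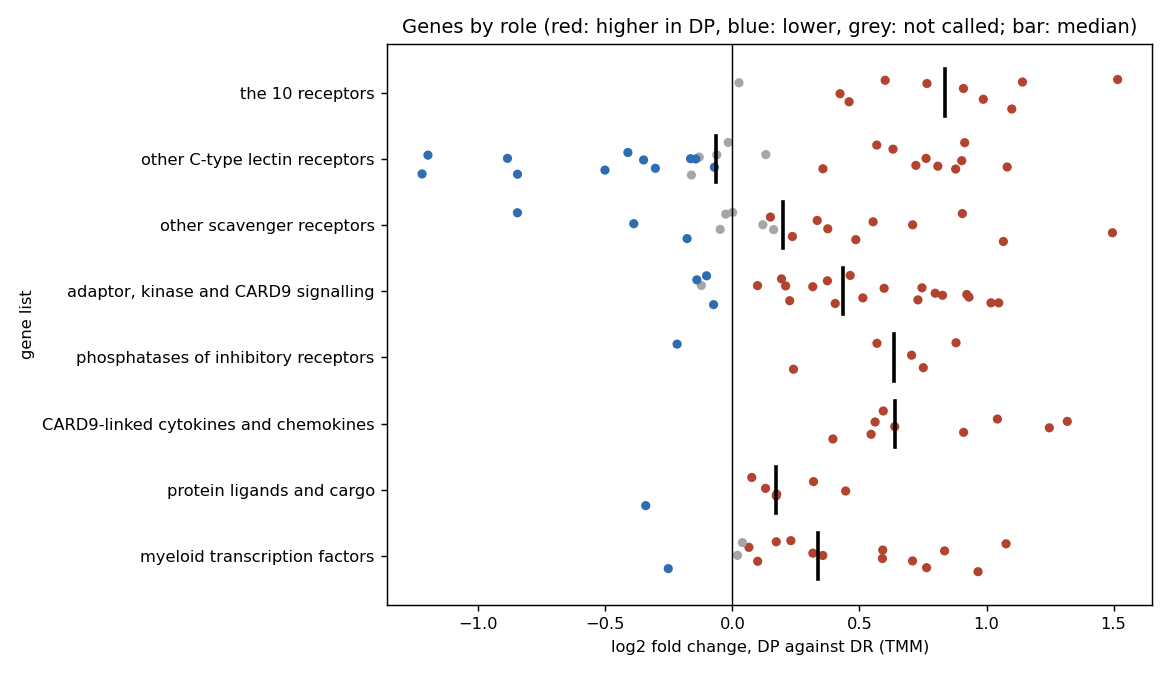
Log2 fold change, DP against DR (horizontal axis), of each tested gene (dot) in the 10 receptors and in 7 lists of related genes, with the median of each list as a black bar. The receptors (median 0.84) and the cytokine genes (0.64) lie to the right, and the other C-type lectin receptors (-0.07) fall on both sides of 0.

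The wider receptor families held genes that moved either way, beside 28.2% of all genes called higher and 27.3% lower. Of 30 other C-type lectin receptor genes, 26 were tested, of which 10 were higher, 11 were lower and 5 were not called (median -0.07). *Cd72* (0.88 ± 0.0830), *Clec4a1* and *Clec4a3* were higher, and *Cd209b*, the mouse receptor SIGN-R1, was lower, at 12.6 ± 3.65 against 28.97 ± 6.67 CPM (-1.20 ± 0.133, adjusted p = 9.88e-09). All 5 *Cd209* genes of the list were lower, with log2 fold changes of -1.22 for *Cd209d*, -0.88 for *Cd209g*, -0.85 for *Cd209f* and -0.50 for *Cd209a*. This family was picked after its values were seen, and reads of its similar copies cannot be assigned with certainty. The mannose receptor *Mrc1* was higher, at 329 ± 33.3 against 222 ± 34.7 CPM (0.57 ± 0.0663). Of 18 other scavenger receptor genes 10 were higher, 3 were lower and 5 were not called (median 0.20). *Cd68* (1.07 ± 0.139), *Lrp1* (0.38 ± 0.0509), *Ssc5d* (0.55 ± 0.0773) and *Colec12* (0.33 ± 0.0467) were higher. Of the receptors picked after their values were seen, *Olr1*, the oxidised LDL receptor LOX-1, was at 20.8 ± 7.38 against 7.36 ± 5.36 CPM (1.50 ± 0.276), *Cd163* was lower (-0.39 ± 0.0931, adjusted p = 0.000697), and *Cd36* (-0.05, adjusted p = 0.234) and *Scarb1* (-0.03, adjusted p = 0.642) were not called.

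Markers of other cells that can carry these receptors were read beside them, again with 28.2% of all tested genes called higher and 27.3% lower. All 9 lipid-associated macrophage markers were higher in DP, their summed CPM running from 2220 to 4590 in DP and 779 to 2453 in DR. Of 8 markers of resident macrophages 3 were higher, 4 were lower and 1 was not called, with summed CPM of 626 to 935 and 554 to 770. Of 5 tested monocyte markers 3 were higher and *Ly6c2* was lower (-0.16 ± 0.0596, adjusted p = 0.0248), their sum running from 163 to 253 CPM in DP and 127 to 199.8 CPM in DR. Of 6 tested neutrophil markers 4 were higher and 1 was lower, their sum running from 34.1 to 50.6 CPM in DP and 17.9 to 36.0 CPM in DR, and *Ly6g* and *Cxcr2* were too low to test. Of 8 dendritic cell markers 1 was higher, 3 were lower and 4 were not called (summed CPM 29.02 to 37.5 and 34.0 to 40.9), and of 6 T cell markers *Cd4* alone was higher (summed CPM 9.64 to 39.1 and 7.58 to 26.5). Of 6 endothelial markers all were lower in DP (summed CPM 531 to 829 and 698 to 995), and of 5 lymphatic endothelial markers 1 was higher and 4 were lower (summed CPM 29.9 to 38.7 and 30.1 to 55.3), beside the higher *Stab1*. Of 6 mast cell markers 5 were higher and 1 was lower, of 6 B cell markers 1 was lower and 5 were not called, and of 6 fibroblast markers 3 were higher and 1 was lower. No gene of these lists was at 0 in every library, and the part of each cell type in the receptor levels was not tested beyond the scaling to pan-macrophage markers.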

How the data were processed

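RNA of gWAT was sequenced from 15 DP and 15 DR mice with BGISEQ. The authors deposited estimated counts of each gene, made with StringTie 2.1.3b on GRCm38.p6, per the submitters' processing notes. Sources used here do not name the aligner, the annotation or the use of strand. Values were whole numbers and were used as deposited, all 30 columns, with 0 columns left unused. Groups came from the disease state in the labels, and replicates were numbered in deposition order. Which litter or sequencing run a mouse belonged to is not given. The p-values set group differences against the spread between these mice, taken as independent, which could not be checked. All 435 pairs of libraries differed by more than sampling noise (chi-square divided by degrees of freedom 7.38 or more).

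The main fit used edgeR 4.0.16 under R 4.3.3 (TMM, filterByExpr with a minimum count of 10, quasi-likelihood F test, group as the only term, threshold 0.05). SE is the log2 fold change divided by the square root of F. A second fit scaled libraries to the geometric mean of counts plus 0.5 of 10 pan-macrophage markers. CPM are TMM-scaled, and list levels and correlations used log2 CPM with a prior count of 2. Single values were tested by permuting libraries 100000 times, two-sided (SciPy 1.17.1). GENCODE M21 (GRCm38, 55141 identifiers found) gave positions and exon lengths, and RefSeq gave promoters. The fits were also run on simulated counts with few changed genes, drawn independently for each gene. That setting differs from these data, and no result here rests on it. Alternatives used DESeq2 1.42.0 (the tool of the study), limma-voom (limma 3.58.1), other factors, filters, covariates and scales, and omission of libraries.

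The receptors and the gene lists were chosen with earlier results of these data known. Named genes are the 10 receptors, up to 4 genes of each list with the smallest p, and the genes most alike to each receptor, and others are marked as picked after their values were seen or are members of the chromosome 6 clusters. Some genes that the lists count are not reported here by name.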

Additional observations from a re-analysis of the deposited data

How the results depend on the processing

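The fit of DP against DR was repeated under 11 alternatives and without each of 30 libraries, and the fit scaled to pan-macrophage markers under 5 alternatives and without each library. The number of receptors called was 9 in DESeq2, limma-voom, the other scalings, the unfiltered fit, the fit with library number as a covariate and the fit without DP4 and DR7, 8 of the 8 tested where genes needed a mean CPM or FPKM over 1 (*Clec4e* and *Marco* were then not tested), and 9 without any single library. Genes called ran from 9420 to 9911 without a library. With the pan-macrophage level as a covariate 1 gene and 0 receptors were called. Log2 fold changes were then -0.12 for *Clec4a2*, -0.17 for *Clec7a*, -0.17 for *Clec10a*, -0.19 for *Clec12a*, -0.17 for *Msr1* and -0.050 for *Marco*, and 0.24 for *Clec4d*, 0.33 for *Clec4e*, 0.44 for *Clec4n* and 0.05 for *Stab1*. The covariate follows the group, and the cause was not tested. *Marco*, near 0 throughout, was at -0.0091 with upper quartile factors and ran from -0.039 to 0.058 without a library. On the macrophage scale 8 receptors were called without any single library, and genes called ran from 16403 to 16540. *Clec4a2* was at -0.000134 and *Clec7a* at 0.08 with summed marker counts. With *Adgre1*, *Csf1r* and *Mertk* alone, *Clec4a2* was at 0.27, *Clec4e* at 0.14, *Clec4n* at -0.22 and *Clec10a* at -0.05, and the cause was not tested. No paired analysis was possible because the labels give no replicate numbers that tie DP to DR mice.

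Depth limits *Clec4e* (12 to 68 counts per library) and *Marco* (12 to 37 counts per library) most. Counting of reads without molecular identifiers, the unstated use of strand and the absence of batch labels apply to all 10 receptors. A gene measured in whole tissue gives no cell of origin.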
